A study of Mus musculus with 3 samples.

Results

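The genes described here code for the structural proteins of elastic fibres and for the enzyme that cross-links them. There were 10 of them among the 19165 genes of the deposited table, listed by name as known parts of the fibre, with earlier results of these data known: elastin (Eln), the fibrillins Fbn1 and Fbn2, the fibulins Fbln1, Fbln2 and Fbln5, the microfibril-associated glycoproteins Mfap2, Mfap4 and Mfap5, and lysyl oxidase (Lox). All 10 had a row in the table. They were followed in back skin of male C57BL/6 mice at embryonic stage E13.5, at E16.5 and on the day of birth (P0), with no allele or treatment beyond the strain. Skin of several mice was pooled into 1 library for each of the 3 stages, so that no animal can be told from another. The study compared these stages to follow hair follicle formation from induction to the first differentiation of hair cells.

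An elastic fibre has a core of cross-linked elastin on a scaffold of microfibrils. Fibrillins polymerise into the microfibrils, microfibril-associated glycoproteins bind to them, fibulins help to place tropoelastin on the scaffold, and lysyl oxidase oxidises lysines of elastin and collagen so that the chains can be joined. In skin these fibres give recoil, they are made mainly by fibroblasts, and the same proteins occur around blood vessels and in basement membranes. Between the fibroblasts of the upper dermis, which lie near the epidermis, and those of the deep dermis and fascia, matrix production is known to differ. The dermal condensate (DC) is the cluster of fibroblasts under a forming hair follicle, and the dermal papilla (DP) is the structure it becomes.

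The libraries held 5962, 5208 and 5065 cells and 53334740, 66239195 and 46599806 unique molecular identifiers (UMIs, each standing for 1 captured transcript), at a median of 7066.5, 11021 and 6797 UMIs per cell. Together these are the 16235 cells of the table. Between 32 and 44 cell barcodes were shared by any pair of libraries. Embryonic skin was digested with 0.25% trypsin for 5 min and P0 skin with 2 mg/ml collagenase IV for 30 min, so stage, library and digestion cannot be told apart. Markers of each lineage were highest in the cells named for it except for the dermal list at E13.5, which summed to 9311 CPM in dermal-like cells and to 10337 CPM in tendon-like cells (CPM, UMIs of a gene per 1000000 UMIs summed over the group of cells). Dermal-like cells numbered 2272, 3293 and 2769 in stage order. Within them a second clustering gave cells named upper-dermal-like (694, 1645 and 881 cells) and deep-dermal-like (606, 848 and 366). Others were named fascia-like (34 at E16.5 and 196 at P0), DC-like (314 at E16.5), DP-like (143 at P0) and adipocyte-like (44 at P0). A further 972, 452 and 1139 cells were left without a subset name. At P0 these included a cluster of 92 cells led by the epithelial markers Krt5, Krt15 and Krt14, which stayed in the dermal-like sums.

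Levels are given as CPM of the UMIs summed over a group of cells, with a 95% exact Poisson interval, and a difference is the log2 ratio of 2 such sums after adding 10 CPM to each. A gene is called higher or lower where this difference is at least 1, a 2-fold change, and at least 50 UMIs were counted over both groups. With 1 library per stage no test was run, and all intervals cover counting error only. In sums over many cells, fewer cells that express a gene and less RNA per cell cannot be told apart. Since 3′ UMIs count molecules and not length, levels are compared for 1 gene between groups and not between genes.

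Reference promoter windows from RefSeq (GRCm38.p6) were at hand for 5 of the 10 genes. Those of Fbln1 and Fbln5 are shown because these fibulins went to opposite sides of the dermis at E13.5. Later they kept different shares of their dermal-like level in other lineages. A further reason is that these 2 windows touch no exon of the GENCODE annotation. Each holds the 250 bases before a transcription start on the strand of the gene, at chr15:85205699-85205948 on the plus strand for Fbln1 and chr12:101819120-101819369 on the minus strand for Fbln5. Capitals mark the letters CCAAT and GGGCGG on either strand.
Fbln1: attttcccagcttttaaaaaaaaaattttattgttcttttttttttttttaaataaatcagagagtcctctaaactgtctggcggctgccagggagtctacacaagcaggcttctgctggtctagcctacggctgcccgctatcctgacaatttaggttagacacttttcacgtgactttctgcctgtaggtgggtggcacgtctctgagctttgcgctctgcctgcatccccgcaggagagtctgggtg
Fbln5: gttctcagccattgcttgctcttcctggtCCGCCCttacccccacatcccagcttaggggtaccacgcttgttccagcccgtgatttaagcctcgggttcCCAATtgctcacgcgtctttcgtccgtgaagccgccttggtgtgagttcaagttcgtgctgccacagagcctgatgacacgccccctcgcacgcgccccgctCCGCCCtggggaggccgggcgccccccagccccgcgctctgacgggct
The Fbln5 window was 65.2% G or C, with 1 match to CCAAT and 2 to GGGCGG, which do not overlap. The Fbln1 window was 46.4% G or C and had no match to them. Of 32851 promoter windows of the same length, 33.9% held CCAAT and 32.7% held GGGCGG. The TATA box TATAAA, in 12.4% of the windows, the AP-1 letters TGANTCA, in 6.75%, and the E-box CAGCTG, in 13%, were searched on both strands as well and were in neither of these 2 windows.

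Dermal-like cells had more of these transcripts than the sum of all other cells per UMI, for each of the 10 genes in each library. Set against all other cells of the library, dermal-like cells had 4 of the 10 genes higher at E13.5 and 9 of 10 at each later stage, with 0 lower throughout. Among all genes compared, 0.703%, 4.0% and 4.78% were higher and 2.44%, 4.95% and 4.82% were lower. The median log2 difference of the 10 genes was 0.97, 2.08 and 2.65, beside 0.02, -0.02 and -0.08 over all genes compared. The other cells were not alike across stages. At E13.5 they held 193 tendon-like and 171 cartilage-like cells, and no cells of the later libraries took these names. Their part in the counts was not tested.

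At E13.5 the genes past 2-fold were Eln, Fbn2, Fbln1 and Lox, with log2 differences between 1.04 and 1.19, and the other 6 lay between 0.49 and 0.99. In this library the fibroblast genes Col1a1, Col1a2, Col3a1, Lum and Dcn, measured for comparison, stood in erythroid-like cells at 55.2% to 108% of their dermal-like level, and the 10 elastic fibre genes stood there at 55.5% to 87.9%. In the same cells at least 1 UMI of Mfap2, a microfibril component, was seen in 94.9% of cells after thinning to 3500 UMIs per cell, beside 96.4% of dermal-like cells (98.5% and 99.1% before thinning). The source of these transcripts in erythroid-like cells was not tested. The count of 4 fell to between 0 and 2 with other cluster resolutions, with each cell weighted the same and with 50 added to each CPM, and to 1 with another naming reference.

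Mfap4 and elastin showed the widest gap to other cells at P0. Eln, the core protein, was in dermal-like cells at 114 (109 to 118), 188 (183 to 192) and 548 (537 to 558) CPM in stage order. Mfap4, a fibrillin-binding glycoprotein, was at 462 (453 to 472), 372 (365 to 378) and 1304 (1288 to 1321) CPM. Against all other cells the log2 difference of Eln was 2.46 (2.38 to 2.54) at E16.5 and 3.68 (3.61 to 3.76) at P0, and that of Mfap4 was 2.98 (2.91 to 3.05) and 4.26 (4.2 to 4.32). The dermal-like cells of the 3 stages are set side by side only, because some of their clusters at E16.5 and P0 were led by a marker of another lineage.

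Mfap2 was present in nearly all dermal-like cells, at 1129, 1794 and 2248 CPM in stage order, and after thinning in 96.4%, 99.6% and 98.2% of them. In epithelial-like cells 66.3%, 37.7% and 52.4% had a UMI after thinning (82.8%, 77.3% and 80.8% before). Lox, the cross-linking enzyme, was at 183, 207 and 185 CPM, the narrowest range across stages among the 10 genes. Fbn1, the fibrillin of mature microfibrils, was at 79.4, 143 and 145 CPM. Fbn2, the fibrillin known mainly from embryonic tissue, was at 305, 253 and 235 CPM. Fbn2 was thus highest in the E13.5 library and Fbn1 lowest in it.

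Among the fibulins, Fbln1, which also binds fibronectin and basement membrane proteins, was at 359, 379 and 242 CPM in dermal-like cells. Fbln2, a fibulin of basement membranes and vessels, was at 95, 152 and 201 CPM. Fbln5, which binds elastin and cells through integrins, was at 83.5, 54.3 and 161 CPM. Mfap5, the second small microfibril glycoprotein, was at 14.4, 38.1 and 52.4 CPM and had a UMI in 7.1%, 8.2% and 6.9% of dermal-like cells, the smallest shares among the 10 genes. After thinning its shares were 3.8%, 4.7% and 5.3%.

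**Figure D1:**
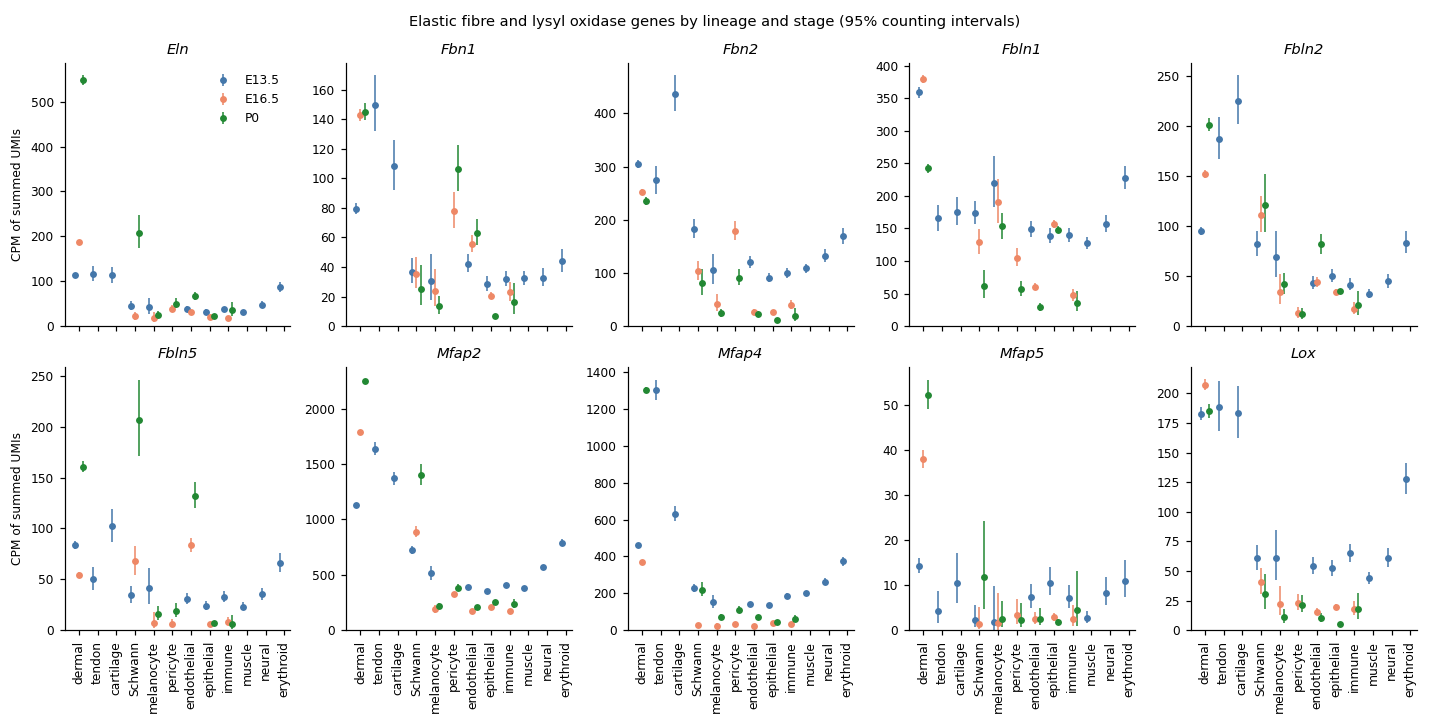
Level of each gene (CPM of summed UMIs, linear axis from 0) in each lineage of at least 50 cells, at E13.5 (blue), E16.5 (orange) and P0 (green), with 95% counting intervals. Dermal-like cells are highest at P0 for Eln (548 CPM), Mfap2 (2248 CPM) and Mfap4 (1304 CPM), and Fbln5 is higher in Schwann-like cells (206 CPM) than in dermal-like cells (161 CPM) at P0.

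Outside the dermis several of the 10 genes kept a larger share of their dermal-like level than collagen genes and other fibroblast transcripts did. The yardstick was the level of Col1a1, Col1a2, Col3a1, Lum and Dcn in the same cells as a share of their dermal-like level, and a gene was set above it where the lower end of its interval exceeded the highest of the 5. At E16.5 this yardstick ran from 5.93% to 8.46% in endothelial-like cells and 7 genes passed it, among them Fbln5 at 154% of its dermal-like level (interval 141% to 167%). At P0 it ran from 4.12% to 5.96%, and the same number passed, with Fbln5 at 82.4% (74.7% to 90.6%). Fbln5 was at 83.6 CPM in 351 endothelial-like cells at E16.5 and at 132 CPM in 267 cells at P0. Fbn1 followed at 39.0% and 43.5% of its dermal-like level and Fbln2 at 28.8% and 40.7%. Lox and Mfap4 did not pass there, at 7.46% and 5.93% at E16.5 and at 5.58% and 5.3% at P0.

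Schwann-like cells, the glia of skin nerves, had the most Mfap2 of the lineages outside the dermis with at least 50 cells at E16.5 and P0. It was at 887 CPM in 110 cells at E16.5 and at 1401 CPM in 99 cells at P0, which is 49.5% (46.7% to 52.3%) and 62.3% (58.1% to 66.7%) of the dermal-like level. The yardstick in these cells reached 33.9% and 28.2%. Fbln5 was at 124% and 128% of the dermal-like level, and its interval at E16.5 began at 101%. Fbln2 was at 73.1% and 60.0%. Eln was at 21.6 CPM at E16.5, below the yardstick, and at 208 CPM at P0, 38.0% of the dermal-like level (31.6% to 45.3%). This P0 level came from few of the cells, as 19.2% of the 99 Schwann-like cells had a UMI of Eln, and 11.1% after thinning. In dermal-like cells of P0 these shares were 72.3% and 59.3%. Mfap4 stayed within or below the yardstick at both stages.

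In pericyte-like cells, which wrap small vessels, only the fibrillins exceeded the yardstick. Other genes of the set were seen in them as well. Mfap2 had a UMI in 67.0% of these cells at E16.5 and 58.7% at P0 after thinning (91.6% and 76.0% before). Fbn1 was at 77.7 CPM in 179 cells at E16.5 and 106 CPM in 242 cells at P0, 54.4% and 73.2% of the dermal-like level. Fbn2 was at 179 and 91.1 CPM, 70.8% and 38.7%. These 2 genes alone passed the yardstick, which reached 30.4% and 20.3%, while Eln was at 38.6 and 50.2 CPM and Fbln5 at 6.27 and 19.3 CPM. No cells at E13.5 were named pericyte-like.

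In epithelial-like cells Fbln1 stood out, though it was not limited to them. It was at 157 CPM in 952 cells at E16.5 and 148 CPM in 1517 cells at P0, 41.3% (39.7% to 43.0%) and 60.9% (58.7% to 63.1%) of the dermal-like level, with the yardstick at up to 31.6% and 15.6%. Fbln2 passed as well at P0, at 17.3%. After thinning 44.0% of epithelial-like cells at E16.5 and 41.1% at P0 had a UMI of Fbln1 (85.0% and 72.9% before). In melanocyte-like cells, 54 at E16.5 and 105 at P0, the shares were 55.6% and 38.1% (83.3% and 69.5% before). Fbln1 was also the gene left under 2-fold between dermal-like and all other cells of the P0 library, at 0.92 (0.86 to 0.98). In the E16.5 library that gene was Fbln5, at 0.78 (0.69 to 0.87). At E13.5 the tendon-like and cartilage-like cells were high for several genes, with Mfap4 at 1303 CPM in 193 tendon-like cells and Fbln2 at 225 CPM in 171 cartilage-like cells, 282% and 237% of the dermal-like level. Of the 10 leading genes of the cartilage-like cells, 3 were on the cartilage list. Cldn11 came first, and Mia, Vtn, Foxc2 and Foxc1 were among the others, so the name is a loose one.

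**Figure D2:**
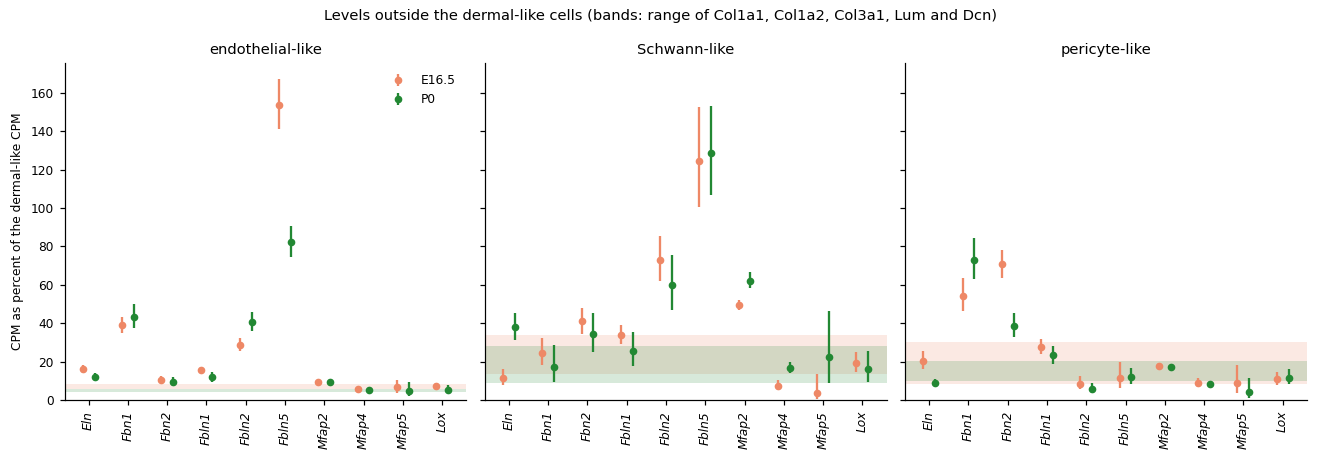
Level of each gene in endothelial-like, Schwann-like and pericyte-like cells as percent of its dermal-like level at E16.5 (orange) and P0 (green), with 95% counting intervals; the bands span Col1a1, Col1a2, Col3a1, Lum and Dcn in the same cells. Fbln5 reaches 154% in endothelial-like and 128% in Schwann-like cells, and Fbn1 reaches 73.2% in pericyte-like cells.

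Upper-dermal-like and deep-dermal-like cells differed in Fbn1, Mfap4 and Lox at all 3 stages, each of them lower in upper-dermal-like cells by more than 2-fold. At E13.5 Mfap4 fell short of this with resolution 0.5 (-0.71) and with naming against the median of the clusters (-0.93), and Fbn1 with 50 added to each CPM (-0.77). In all, 5 of 10 genes were lower at E13.5, 5 of 10 at E16.5 and 3 of 9 at P0, where 2.40%, 1.76% and 2.62% of all genes compared were lower. Higher were 1 gene at E13.5 (Fbln1), 0 at E16.5 and 1 at P0 (Fbln2), beside 2.43%, 1.19% and 6.23% of all genes. The call of Fbln2 at P0 was lost with resolution 0.5 (0.59), with 4000 variable genes (0.93) and with subsets named from 3 markers (0.64). The median difference of the set was -0.91, -0.96 and -0.26, and that of all genes was 0.01, 0.06 and 0.23. Phase differed as well, with 29.3%, 32.8% and 60.7% of upper-dermal-like and 76.4%, 46.2% and 90.7% of deep-dermal-like cells in G1, and each gene called here was also past 2-fold among G1 cells alone.

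Lox was at 67.2 CPM (61.5 to 73.3) in upper-dermal-like and 327 (313 to 342) in deep-dermal-like cells at E13.5. The values in the E16.5 library were 119 (114 to 124) and 412 (400 to 424), and in that of P0 98.9 (90.6 to 108) and 383 (358 to 408). The log2 differences were -2.13 (-2.25 to -2.0), -1.71 (-1.78 to -1.64) and -1.85 (-2.0 to -1.7). Clusters of at least 50 cells did not overlap in the embryo, with upper-dermal-like clusters at 36.0 to 99.5 CPM and deep-dermal-like clusters at 204 to 421 CPM at E13.5, and at 76.1 to 202 and 278 to 568 CPM at E16.5.

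Mfap4 was at 236, 96.0 and 497 CPM in upper-dermal-like and at 736, 830 and 2953 CPM in deep-dermal-like cells. The log2 differences were -1.60 (-1.68 to -1.52), -2.99 (-3.06 to -2.92) and -2.55 (-2.61 to -2.48). Among dermal-like clusters its level ranged over more than that of any other gene but Mfap5 and, in the embryo, Lox. Upper-dermal-like clusters of P0 ran from 101 CPM in 309 cells to 1527 CPM in 210 cells that were led by Dkk1 and Sost, and deep-dermal-like clusters of E16.5 ran from 134 CPM in 126 cells led by cell cycle genes to 2753 CPM in 160 cells led by C1qtnf3 and Aspn.

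Fbn1 was at 48.7, 80.7 and 63.6 CPM in upper-dermal-like cells and at 118, 213 and 242 CPM in deep-dermal-like cells, with log2 differences of -1.12 (-1.28 to -0.97), -1.30 (-1.39 to -1.21) and -1.77 (-1.95 to -1.60). Fbn2 was even across both groups at E13.5 (316 and 311 CPM), and its difference was -0.63 (-0.69 to -0.56) at E16.5 and -0.26 (-0.40 to -0.13) at P0. Mfap2 also stayed close, with differences between -0.30 and -0.08. The 2 fibrillins thus differed in their spread over the dermis, and no interval of Fbn2 reached 2-fold. The order of cluster levels for Mfap2 ran over less than 3-fold within each stage.

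Mfap5 was lower in upper-dermal-like cells of the embryo, at 1.71 beside 37.4 CPM at E13.5 and at 2.11 beside 47.1 CPM at E16.5 (log2 differences -2.02 and -2.24). The cluster of 160 cells, at 214 CPM, held 362 of the 490 deep-dermal-like UMIs of E16.5. Deep-dermal-like clusters of 460, 102 and 126 cells were at 9.90, 43.3 and 2.68 CPM, beside 0.73 to 3.21 CPM in upper-dermal-like clusters. At P0 the upper-dermal-like cells gave 7 and the deep-dermal-like cells 5 UMIs of Mfap5, which is under the limit for a comparison.

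Elastin did not keep to 1 side. At E13.5 it was at 129 CPM (121 to 137) in upper-dermal-like and 116 (108 to 125) in deep-dermal-like cells, at 96.3 (91.7 to 101) and 340 (329 to 351) at E16.5, and at 807 (782 to 831) and 423 (397 to 450) at P0. The log2 differences were 0.14 (0.01 to 0.27), -1.72 (-1.80 to -1.64) and 0.92 (0.82 to 1.01). With resolution 0.5 the E16.5 difference was -0.95, short of 2-fold. The deep-dermal-like sum of E16.5 rests in large part on the cluster of 160 cells, at 1089 CPM (1040 to 1140), while the other 3 deep-dermal-like clusters were at 92.6, 183 and 335 CPM and the 6 upper-dermal-like clusters at 74.9 to 284 CPM. At P0 all 4 upper-dermal-like clusters, at 590 to 1116 CPM, lay above the main deep-dermal-like cluster of 347 cells, at 432 CPM. Globin RNA differed beside it, with the erythroid list at 2023 CPM in upper-dermal-like and 353 CPM in deep-dermal-like cells at P0, and its part in the result was not tested.

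The fibulins each had a pattern of their own. At E13.5 Fbln1 was at 553 CPM (537 to 570) in upper-dermal-like and 203 (192 to 215) in deep-dermal-like cells, at 439 and 348 CPM at E16.5, and at 277 and 261 CPM at P0. Its difference thus went from 1.40 (1.31 to 1.49) to 0.33 (0.27 to 0.38) and 0.08 (-0.05 to 0.21). Fbln2 was at 71.8 and 124 CPM at E13.5, at 135 and 64.0 CPM at E16.5 and at 247 and 71.3 CPM at P0, with differences of -0.71 (-0.85 to -0.56), 0.97 (0.86 to 1.08) and 1.66 (1.46 to 1.87). At P0 its upper-dermal-like sum came from 2 clusters at 544 and 422 CPM, while the other 2 clusters of at least 50 cells were at 56.6 and 122 CPM. Fbln5 was past 2-fold at E13.5 only, with differences of -1.24 (-1.39 to -1.09), -0.43 (-0.56 to -0.31) and -0.51 (-0.66 to -0.36).

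**Figure D3:**
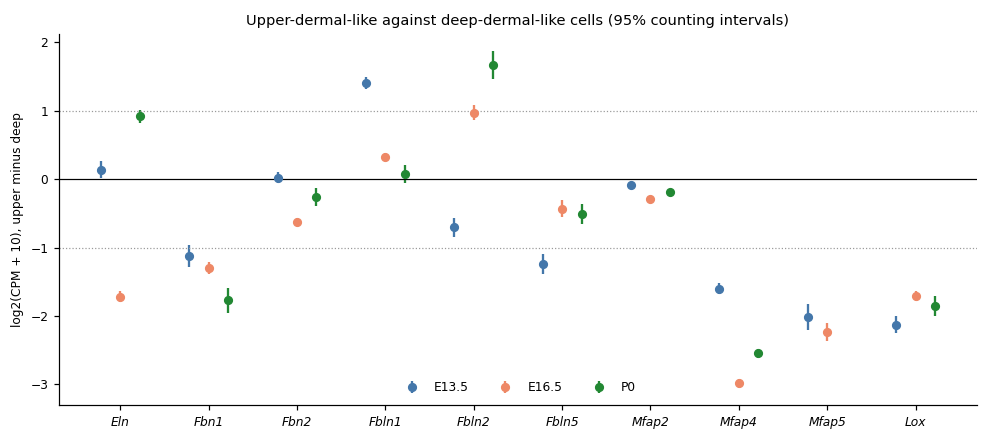
Difference in log2(CPM + 10) between upper-dermal-like and deep-dermal-like cells for each gene at E13.5 (blue), E16.5 (orange) and P0 (green), with 95% counting intervals and dotted lines at 2-fold. Fbn1, Mfap4 and Lox lie below -1 at all 3 stages, Eln changes sign between stages, and Mfap5 is not drawn at P0.

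Fascia-like cells, the fibroblasts under the dermis, were the main carriers of Mfap5. At P0 it was at 507 CPM (472 to 544) in 196 fascia-like cells, beside 1.35 CPM in upper-dermal-like, 2.12 CPM in deep-dermal-like and 2.76 CPM in DP-like cells, and 53.1% of fascia-like cells had a UMI after thinning, beside 0.6%, 0.5% and 0.7%. The shares before thinning were 59.7%, 0.8%, 1.1% and 2.1%. Some cells without a subset name had Mfap5 too. A cluster of 175 of them at P0, led by the fascia marker Ly6a, was at 109 CPM (91.4 to 128). Another, of 61 cells at E16.5, was at 187 CPM (161 to 217). At E16.5 the 34 fascia-like cells were too few for a comparison, but they had Mfap5 at 1596 CPM (1477 to 1721) and Fbn1 at 1358 CPM (1249 to 1474), and 94.1% of them had a UMI of Mfap5 after thinning.

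Against the other dermal-like cells of P0, 4 of 10 genes were higher in fascia-like cells (2.38% of all genes) and 0 were lower (2.98%). The differences were 4.53 (4.39 to 4.68) for Mfap5, 1.78 (1.71 to 1.84) for Eln, 1.26 (1.12 to 1.39) for Fbn1 and 1.08 (1.03 to 1.13) for Mfap4, and Lox came close at 0.99 (0.87 to 1.12). The call of Mfap4 held in only 5 of 12 alternatives. It was lost, among others, with resolution 0.5, with resolution 2 and with cells of at least 2500 genes. Among the 10 leading genes of these cells 2 were fascia markers and 2 were deep-dermal markers. The median of the set was 0.72 and that of all genes was -0.14. Fbln2 was at 117 CPM and its difference was -0.78 (-0.98 to -0.58). The set of fascia-like cells depended on the processing: with another naming reference 315 cells took the name and only Lox was past 2-fold, and when 3 markers were enough for a name it grew to 612 cells, in which Mfap5 and Fbln2 were past 2-fold.

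The fascia-like level of Eln came from few of these cells. The 19 cells with the most Eln UMIs held 85.2% of those of the group, while the top 88 of 881 upper-dermal-like cells held 29.2%, and after thinning 46.9% of fascia-like and 81.7% of upper-dermal-like cells had a UMI (64.8% and 88.9% before). After these values had been seen, the 26 fascia-like cells with at least 10 UMIs of Eln were taken apart from the other 170. The cut sets the Eln level on both sides, so Eln is not compared between them. Values of other genes only describe cells picked by their Eln. The same 26 cells had Mfap4 at 9351 CPM (8921 to 9796) beside 1584 (1518 to 1653) in the other cells, Lox at 1123 (977 to 1284) beside 241 (215 to 268), Fbn2 at 664 beside 178 CPM and Mfap5 at 901 beside 452 CPM. Their leading genes after Eln were Igfbp2, C1qtnf3, Cthrc1, Ltbp2, Hba-a1, Fibin, Hbb-bs, Kcnj8, Hba-a2 and Sfrp4. The deep-dermal list stood at 21205 CPM in them beside 9720 CPM in the other fascia-like cells. In the same order the fascia list was at 3695 and 2989 CPM, the upper-dermal list at 532 and 468, and the adipocyte list at 727 and 4824. The erythroid list was at 4364 beside 431 CPM, and its part in the result was not tested.

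Leading genes in common with these 26 cells were found at E16.5 in a cluster named deep-dermal-like. This cluster of 160 cells had, of the 15 dermal-like clusters with at least 50 cells, the highest level of Eln, Fbn1, Fbn2, Fbln5, Mfap2, Mfap4, Mfap5 and Lox. Mfap4 was at 2753 CPM (2674 to 2833), Mfap5 at 214 (193 to 238) and Lox at 568 (533 to 605). Its leading genes were C1qtnf3, Aspn, Angptl1, Mfap4, Kcnj8, Fibin, Gas6, Ptn, Postn and Ltbp2. Of these, C1qtnf3, Ltbp2, Fibin and Kcnj8 were also among the 10 leading genes of the 26 cells at P0. The cells were matched on leading genes only, and no joint clustering was made. The 26 cells had been picked by their Eln UMIs.

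Fbln2 was higher in DC-like and DP-like cells than in the other dermal-like cells of their libraries. DC-like cells of E16.5 had it at 649 CPM (621 to 679) and DP-like cells of P0 at 731 CPM (681 to 783), with log2 differences of 2.48 (2.40 to 2.56) and 2.04 (1.93 to 2.15) from the other dermal-like cells. After thinning 78.7% of DC-like and 80.4% of DP-like cells had a UMI, beside 36.5% of upper-dermal-like cells at E16.5 and 41.3% at P0 (before thinning 90.8%, 86.7%, 68.4% and 49.8%). Both DC-like clusters were high, at 573 CPM in 214 cells and 805 CPM in 100 cells, and both DP-like clusters, at 585 CPM in 100 cells and 972 CPM in 43 cells. High levels were not limited to these cells: the 34 fascia-like cells of E16.5 had Fbln2 at 445 CPM, with a UMI in 82.4% of them after thinning (97.1% before), and an upper-dermal-like cluster of 210 cells at P0 had it at 544 CPM. A cluster of 93 cells at P0 that was led by Acta2 and Tagln and took no name had Fbln2 at 347 CPM. Of DC-like cells 67.8% were in G1, beside 36.3% of the other dermal-like cells, and of DP-like cells 92.3%, beside 69.5%.

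Lox was low in the same cells. It was at 23.9 CPM (18.7 to 30.1) in DC-like and 43.3 CPM (31.8 to 57.6) in DP-like cells, with differences of -2.78 (-3.02 to -2.54) and -1.93 (-2.27 to -1.59). Mfap5 was lower as well, at 6.06 CPM in DC-like cells and with 3 UMIs in all DP-like cells. Fbn2 was at 126 and 97.6 CPM, with differences of -1.01 (-1.15 to -0.87) and -1.23 (-1.49 to -0.98). In DC-like cells this call of Fbn2 held in 8 of 12 alternatives.

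In DC-like cells 2 genes were higher (2.83% of all genes) and 3 were lower (1.99%), and in DP-like cells 1 was higher (6.02%) and 5 were lower (3.45%), Mfap5 with its 3 UMIs among them. The medians of the set were -0.28 and -1.06, and those of all genes were 0.07 and 0.15. The second gene higher in DC-like cells was Mfap4, at 754 CPM with a difference of 1.13 (1.07 to 1.20), which was lost with 4000 variable genes (0.84), cells of at least 2500 genes (0.65), naming against the median (0.50) and cells in G1 alone (0.69). Mfap4 was at 745 CPM in DP-like cells, where the difference from the other dermal-like cells was -0.84 (-0.94 to -0.74).

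Eln was at 292 CPM (273 to 312) in DC-like cells and at 185 CPM (160 to 213) in DP-like cells, a difference of 0.68 (0.58 to 0.78) from the other dermal-like cells of E16.5 and of -1.57 (-1.76 to -1.38) from those of P0. The DC-like clusters differed, with Eln at 149 CPM in 214 cells and 583 CPM in 100 cells. Fbln1 was lower in DP-like cells, at 99.5 CPM with a difference of -1.25 (-1.5 to -1.0). When cells with fewer than 2500 genes were left out, Eln, Fbn2, Lox and Fbln1 were no longer lower in the 146 cells then named DP-like, with differences of 0.31, 0.43, 0.39 and -0.22, and Fbln2 and Mfap5 stayed past 2-fold.

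**Figure D4:**
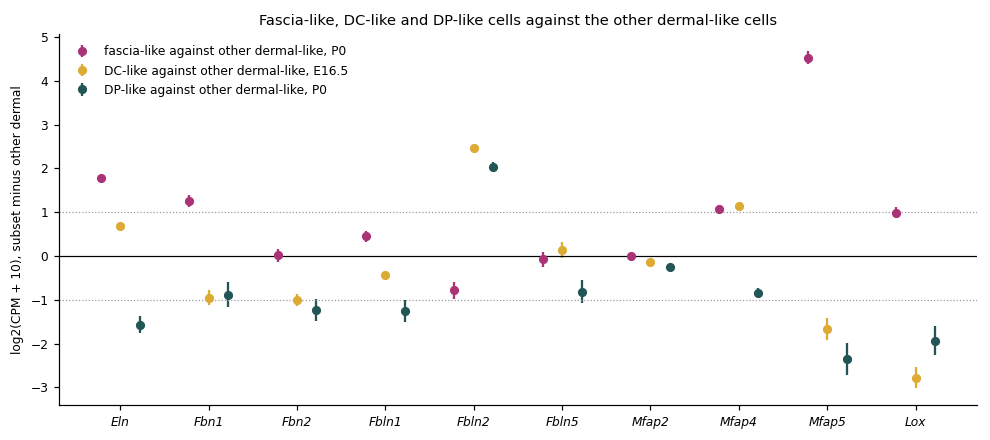
Difference in log2(CPM + 10) from the other dermal-like cells for fascia-like cells of P0 (purple), DC-like cells of E16.5 (yellow) and DP-like cells of P0 (dark teal), with 95% counting intervals and dotted lines at 2-fold. Mfap5 is at 4.53 in fascia-like cells, and Fbln2 is at 2.48 in DC-like and 2.04 in DP-like cells.

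The 44 adipocyte-like cells of P0 were low for the whole set, with Mfap2 at 152 CPM (124 to 185) beside 2248 in all dermal-like cells and Eln at 27.1 CPM (16.0 to 42.8) beside 548. They were too few for a comparison.

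**Figure D5:**
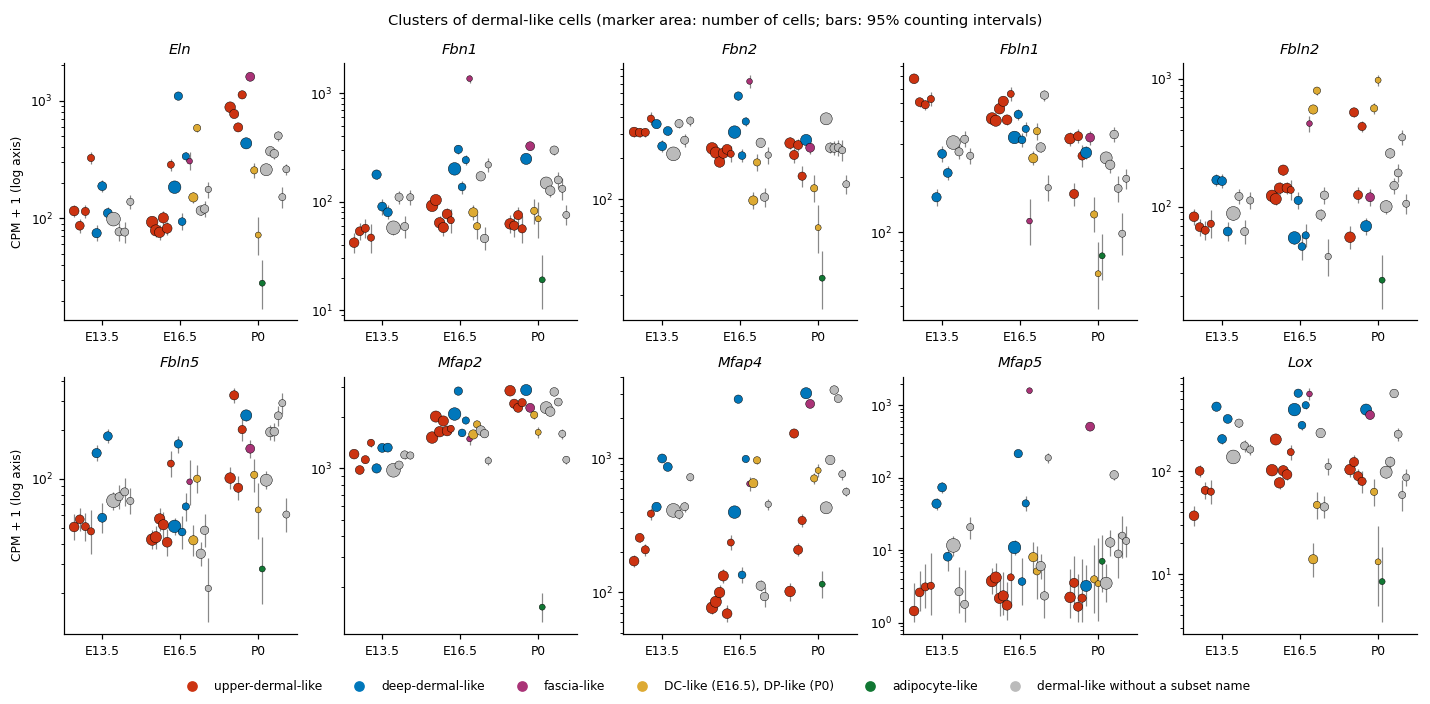
Level of each gene (CPM + 1, log axis) in each cluster of dermal-like cells with at least 34 cells, by stage, with marker area for the number of cells, colour for the subset and 95% counting intervals. At E13.5 and E16.5 Lox is lower in every upper-dermal-like cluster drawn (red) than in every deep-dermal-like cluster (blue), while Mfap4 overlaps at E16.5, and Fbln2 is at 573 to 972 CPM in DC-like and DP-like clusters (yellow), and Mfap5 is above 500 CPM only in fascia-like clusters (purple).

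Over all cells of a library, 0 of the 10 genes were higher and 0 lower by 2-fold between E13.5 and E16.5, where 1.71% and 1.86% of all genes were, although with 1 in place of 10 added to each CPM Mfap5 passed, at 1.11. The largest differences were 0.71 (0.63 to 0.79) for Mfap5 and -0.64 (-0.67 to -0.61) for Mfap4. Between E16.5 and P0, 2 genes were higher (1.58%) and 0 were lower (1.75%): Eln by 1.01 (0.97 to 1.05) and Mfap4 by 1.30 (1.27 to 1.33). Fbln5 was higher by 0.81 (0.75 to 0.87). Dermal-like cells were 38.1%, 63.2% and 54.7% of the cells in stage order, and their part in these values was not tested. With cells under 2500 genes left out neither was past 2-fold, with Eln at -0.0025 and Mfap4 at 0.10, and Fbn1 (-1.08), Fbn2 (-1.38) and Lox (-1.67) were lower.

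Values of the dermal subsets by stage are set side by side. In upper-dermal-like cells Eln stood at 129, 96.3 and 807 CPM, Fbln5 at 51.2, 49.5 and 164 CPM and Mfap4 at 236, 96.0 and 497 CPM. In deep-dermal-like cells Eln stood at 116, 340 and 423 CPM, Fbln5 at 135, 70.4 and 238 CPM and Mfap4 at 736, 830 and 2953 CPM. The P0 value was the highest of the 3 in both subsets for each of these genes.

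Other genes of elastic fibre assembly were taken from a list of 24, all of them in the table. Of the 21 compared at E13.5, dermal-like cells had 2 higher than all other cells and 0 lower. In each of the later libraries 23 were compared, of which 8 were higher and 1 lower. Over all genes 0.703%, 4.0% and 4.78% were higher and 2.44%, 4.95% and 4.82% lower. At E13.5 these were Efemp1 at 1.20 and Fn1 at 1.08. Later the largest difference was that of Loxl1, a lysyl oxidase relative that acts on elastin, at 2.36 (2.26 to 2.45) in the E16.5 and 3.49 (3.39 to 3.58) in the P0 library, and Loxl2, another relative, was at 1.86 and 2.36. Efemp2, the fibulin that brings lysyl oxidase to elastin, was at 1.92 (1.85 to 1.98) at E16.5. Mmp2, a matrix protease, was at 2.85 (2.77 to 2.93) at P0. Timp3, a protease inhibitor, was the gene that was lower, at -1.14 and -2.53.

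Between the dermal layers most list genes did not pass 2-fold. Upper-dermal-like cells had 7 of 19 genes lower at E13.5, 6 of 22 at E16.5 and 3 of 19 at P0 (2.40%, 1.76% and 2.62% of all genes), and 0 higher at each stage (2.43%, 1.19% and 6.23%). The median of the list was -0.67, -0.60 and -0.13. Loxl1 had differences of -1.94 (-2.14 to -1.74), -2.82 (-2.94 to -2.7) and -2.41 (-2.56 to -2.25). Postn, a matrix protein that promotes cross-linking, was at 33.1 and 228 CPM in upper-dermal-like and deep-dermal-like cells at E13.5 and at 50.7 and 811 CPM at E16.5. Timp3 was at -1.92 at E13.5, and Efemp1, a fibulin, at -2.46 at P0. Fn1, fibronectin, had differences of -1.92 at E16.5 and -1.95 at P0.

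In fascia-like cells of P0, 6 of 21 list genes were higher and 1 was lower (2.38% and 2.98% of all genes), led by Postn at 1782 CPM (a difference of 3.82) with Efemp1 at 2.02, Fn1 at 1.60 and Adamts17 at -1.43. Of 23 in DC-like cells 1 was higher and 4 were lower (2.83% and 1.99% of all genes), and of 21 in DP-like cells 2 were higher and 7 were lower (6.02% and 3.45%). The latent TGF-beta binding protein Ltbp1 was the higher one in both, at 1.25 (1.08 to 1.42) in DC-like and 3.61 (3.42 to 3.79) in DP-like cells, and Timp3 was at 1.01 in DP-like cells. Postn, at -2.42 and -1.99, and Fn1, at -1.62 and -1.91, were lower in both, Loxl1 in DC-like cells at -1.49 and Efemp1 in DP-like cells at -1.63. Over all cells, Postn (1.30) and Ltbp4 (1.01) were higher and Efemp1 (-1.53) lower at E16.5 than at E13.5 (1.71% and 1.86% of all genes), and Emilin1 (-1.28) and Thsd4 (-1.10) were lower at P0 than at E16.5 (1.75%).

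The genes whose levels ran most like each of the 10 were ranked over 25 groups, a lineage at a stage with at least 50 cells each, among 11683 genes with at least 500 UMIs. These correlations across groups are descriptions, and the groups of a stage share a library and its free RNA. The likeness was highest for Lox with Pdgfra (Pearson r 0.97), Wisp1 and Cdh11, for Fbn2 with Loxl2 (0.97), Scarf2 and P3h3, for Mfap4 with Sfrp2 (0.96), Olfml1 and Gpc3, and for Mfap2 with Mmp2 (0.95), Reck and 1810055G02Rik. It was 0.93 for Fbn1 with Fkbp7, then Fstl1 and Pdia5, and 0.92 for Eln with Cys1, then Loxl1 and Cpq. For Fbln1 it was 0.88 with Evc, then Bckdhb and Enox1, and for Mfap5 0.88 with Ndnf, then Rspo3 and Tspan11. For Fbln2 it was 0.84 with Ift20, then Npr2 and Chst14, and for Fbln5 0.81 with Plpp3, then Sec62 and Tmem106b. Ranked values gave Mfap5 a looser likeness, with a Spearman rho of 0.63 with Ndnf and 0.57 with Rspo3. By that measure Tspan11 came first for Mfap5, at 0.73. Within the set, over these 25 groups, the closest pair was Fbn2 and Lox (0.90) and the least alike were Fbln1 and Fbln5 (0.11). Over dermal-like clusters alone r was 0.01, 0.89 and 0.36 in stage order for Fbn2 and Lox. For Fbln1 and Fbln5 it was -0.82, 0.56 and -0.30.

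By the GENCODE vM21 annotation of GRCm38 all 10 are protein-coding genes. They lie on 8 chromosomes: Eln at chr5:134702593-134747323, Fbn1 at chr2:125300594-125507993, Fbn2 at chr18:58008623-58210487, Fbln1 at chr15:85205949-85286535, Fbln2 at chr6:91212455-91272540, Fbln5 at chr12:101746565-101819055, Mfap2 at chr4:141010418-141015984, Mfap4 at chr11:61485431-61488900, Mfap5 at chr6:122505845-122529290 and Lox at chr18:52516067-52529867.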

How the data were processed

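Single-cell RNA of back skin was measured with 10x Genomics 3′ chemistry, 1 library per stage. The authors aligned reads with Cell Ranger 2.2.0 to mm10 and kept cells with at least 1750 genes. In the deposited table, each cell's UMIs were scaled by the authors to a total of 10000, 1 was added and the natural log (ln) taken. All 48197283 values above 0 turned back into whole UMIs within 0.001, and these were summed. Cells were clustered per library (scanpy 1.11.5, leidenalg 0.10.2, 2000 variable genes, 30 components, resolution 1) without the 10 genes or the assembly list among the clustering genes, and named from marker lists, with at least 3 markers for a lineage and 4 for a dermal subset. The rules that leave a subset unnamed were set after the clusters were seen. Names rebuilt in this way may differ from those of the study. Doublets called by Scrublet (0, 84 and 106 cells) were kept, and the caller did not work at E13.5.

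Sums were scaled to CPM and compared as stated with the results, with intervals from scipy 1.17.1. The interval of a difference was tested on simulated data. From the assembly list, the text names, for each comparison, the 3 genes with the highest and the 3 with the lowest difference where past 2-fold, and for likeness the 3 genes with the highest r. The 10 genes and all lists were chosen with earlier results of these data known. Alternatives changed the resolution, the clustering genes, the lowest gene number, the naming reference, the doublets, the weight of a cell, the added CPM and the cell cycle phase. A further 2 were chosen after seeing the data.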

Additional observations from a re-analysis of the deposited data

Results flagged for a closer look

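The difference in Eln between upper-dermal-like and deep-dermal-like cells changed sign with stage, being 0.14 at E13.5, -1.72 in the E16.5 library and 0.92 in that of P0 on the log2 scale. That of Fbln2 did so as well, at -0.71 in the E13.5 library, 0.97 in the next and 1.66 at P0. The change between stages was not tested, since each stage is 1 library.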

How the results depend on the processing

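No paired analysis was possible because each stage is 1 library and no test was run. Of 54 differences past 2-fold among the 10 genes, 48 kept their sign in all alternatives run and 26 stayed past 2-fold in all. The count for dermal-like cells at E13.5, 4 genes, was 2 with resolution 0.5, 2 with resolution 2, 1 with naming against the median of the clusters, 2 with each cell weighted the same and 0 with 50 added to each CPM. With 50 added, the 6 genes past 2-fold between upper-dermal-like and deep-dermal-like cells at E13.5 became 3, the 5 of DC-like cells 3 and the 2 between P0 and E16.5 over all cells 1, and with 1 added the 0 between E16.5 and E13.5 became 1. The 4 genes of fascia-like cells were 2 with 4000 variable genes, 1 with naming against the median, where Eln was at -0.61, and 2 with subsets named from at least 3 markers, where Mfap4 was at -0.074. In fascia-like cells Mfap4 was also lost with resolution 0.5, with resolution 2 and with cells of at least 2500 genes. With cells of at least 2500 genes the 6 genes of DP-like cells became 2, with Eln at 0.31, Fbn2 at 0.43 and Lox at 0.39, and Eln over all cells was at -0.0025 between P0 and E16.5. There Mfap4 over all cells was at 0.10, and Fbn1, Fbn2 and Lox became lower than -1. The cause was not tested. Resolution 0.5 gave no value for DP-like cells, cells of at least 2500 genes gave none for the dermal layers at P0, and naming against the median gave none for them at E16.5. Naming from 3 markers, and leaving out dermal-like cells without a subset name, were chosen after seeing the data. Depth limits Mfap5 between the dermal layers at P0, with 7 and 5 UMIs.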
